A study of Mus musculus with 6 samples.

Results

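Genes of the red cell membrane and of oxygen and carbon dioxide transport were followed through 3 sorted progenitor populations of the mouse fetal liver, in Satb1 KO embryos and in WT littermates. The set was chosen by gene name: Hba-a1, Slc4a1, Ahsp, Epor, Car1, Car2, Ermap, Icam4 and Tfrc, each with every array probe that carries its symbol or RefSeq accession. Of the 9 genes listed, 8 were matched to 13 probes, among 20667 genes named on the array, and Ahsp, the alpha globin chaperone, was not analysed here. All 6 groups were C57BL6/J embryos at E18.5, and each group had 1 array. The groups were Satb1 KO HSC, Satb1 KO LMPP, Satb1 KO CLP, WT HSC, WT LMPP and WT CLP. The HSC sort (enriched for haematopoietic stem cells) took lineage-negative cells with high c-kit and Sca-1 but without Flt3. The LMPP sort (lymphoid-primed multipotent progenitors) took such cells with Flt3, and the CLP sort (common lymphoid progenitors) took lineage-negative cells with low c-kit, low Sca-1 and IL7Rα. The design of the Satb1 allele, the antibodies of the lineage gate and the number of embryos behind each sample are not given in the sources used here.

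Red cells are made in the fetal liver in late gestation, from megakaryocyte-erythroid progenitors and not along the lymphoid path on which LMPP and CLP lie. Erythropoietin binds its receptor Epor and keeps early erythroid cells alive through Jak2 and Stat5. Maturing cells then take up transferrin-bound iron through Tfrc, make haem and globin, and build a membrane in which band 3 (Slc4a1) is tied to a spectrin skeleton. Carbonic anhydrases hydrate carbon dioxide to bicarbonate, which band 3 exchanges for chloride. GATA1 and KLF1 are the factors best known for switching these genes on, and they bind GATA and CACCC motifs.

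Promoters are shown because most of these genes were high on the same arrays. RefSeq windows of assembly GRCm38.p6 were at hand for 5 of the 8 genes, and each line gives the 250 bases before the annotated start, 5′ to 3′ on the gene's strand. Tfrc has a second annotated start, whose window is not shown. Capitals mark a GATA hexamer on either strand, that is GATA with A or T before it and A or G after it.
Hba-a1, chr11:32283422-32283671, plus strand: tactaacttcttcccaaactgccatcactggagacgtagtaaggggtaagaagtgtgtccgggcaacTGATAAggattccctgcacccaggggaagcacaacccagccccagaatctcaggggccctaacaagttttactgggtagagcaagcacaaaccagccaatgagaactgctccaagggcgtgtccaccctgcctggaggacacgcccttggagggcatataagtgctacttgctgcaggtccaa
Epor, chr9:21963577-21963826, minus strand: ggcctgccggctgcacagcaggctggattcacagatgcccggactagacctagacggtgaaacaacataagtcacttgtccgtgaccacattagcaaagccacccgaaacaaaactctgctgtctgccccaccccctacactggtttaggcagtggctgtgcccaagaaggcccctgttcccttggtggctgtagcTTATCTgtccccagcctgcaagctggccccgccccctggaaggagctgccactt
Ermap, chr4:119189996-119190245, minus strand: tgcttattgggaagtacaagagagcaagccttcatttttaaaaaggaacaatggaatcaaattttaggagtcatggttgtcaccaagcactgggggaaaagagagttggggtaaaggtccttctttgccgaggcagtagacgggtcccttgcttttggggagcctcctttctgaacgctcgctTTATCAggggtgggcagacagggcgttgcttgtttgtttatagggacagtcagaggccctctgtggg
Icam4, chr9:21029182-21029431, plus strand: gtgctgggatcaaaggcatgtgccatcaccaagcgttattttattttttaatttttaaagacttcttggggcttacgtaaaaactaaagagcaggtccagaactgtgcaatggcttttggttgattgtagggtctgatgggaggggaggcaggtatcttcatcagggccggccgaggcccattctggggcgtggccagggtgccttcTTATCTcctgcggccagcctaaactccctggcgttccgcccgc
Tfrc, chr16:32608646-32608895, plus strand: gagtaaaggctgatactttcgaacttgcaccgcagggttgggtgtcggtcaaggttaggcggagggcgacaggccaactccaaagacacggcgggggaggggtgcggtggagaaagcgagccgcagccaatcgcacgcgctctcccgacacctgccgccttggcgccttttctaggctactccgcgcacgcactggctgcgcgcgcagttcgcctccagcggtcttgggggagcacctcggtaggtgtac
A GATA hexamer was present in 4 of the 5 windows, all except that of Tfrc, and in 26.5% of the 32851 windows of this length in the RefSeq table. It lay 183 to 178 bases before the start in Hba-a1, 67 to 62 bases in Ermap, 54 to 49 bases in Epor and 43 to 38 bases in Icam4. CACCC, searched on both strands, was present in all 5 windows and in 52.0% of all windows. CCAAT and TATAAA were searched on both strands too. CCAAT was present in 3 of the 5 (Hba-a1, Ermap and Tfrc) and in 33.8% of all windows. TATAAA was present in that of Ermap and in 12.4% of all windows. The CCAAT and TATAAA matches of Ermap lie on the strand opposite to the gene, so the letters shown hold their reverse complements. The second Tfrc window, left out of the counts over 5 windows, held CACCC but no GATA hexamer, CCAAT or TATAAA. A match describes the letters of a window and does not show that a factor binds there.

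On each array between 52.4% and 57.7% of the spots were well above background, and no spot was saturated. Levels are log2 of the processed signal over the array's 75th percentile, so that 0 is that percentile and each unit above it is a doubling. Differences are log2 too, and the error of the scanner software for a difference between 2 arrays had a median of 0.205 over the genes. With 1 array per group that error holds no variation between embryos, sorts or amplifications, and a difference between 2 arrays has no test. The Satb1 probe stood at -0.59, 1.96 and 0.65 in Satb1 KO HSC, LMPP and CLP, against -0.03, 2.0 and 0.71 in WT. Whether it lies in the deleted stretch is not known here, so it does not check the labels. In both genotypes LMPP had the highest Flt3 level and CLP the highest Il7r level. Xist was well above background on the 3 Satb1 KO arrays only, while the Y-linked Eif2s3y and Ddx3y were well above background on all 6. Eif2s3y stood at -2.05, -1.65 and -0.25 in Satb1 KO HSC, LMPP and CLP, against 0.38, 0.67 and 0.98 in WT. The Satb1 KO arrays lay in 1 row of the slide and the WT arrays in the other, so that genotype, sex-linked signal and slide row cannot be told apart. Less RNA per cell and fewer cells of a type cannot be told apart in such bulk samples either.

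Alpha globin was measured by the Hba-a1 probe. Satb1 KO HSC had a level of 5.01, Satb1 KO LMPP 6.23 and Satb1 KO CLP 8.88. WT HSC had 3.39, WT LMPP 3.83 and WT CLP 8.84. The order was HSC, LMPP, CLP in both genotypes, and both CLP arrays were above the other 4. Hba-a1 and its neighbour Hba-a2 are near-identical copies, so their probes may read RNA of either gene.

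Band 3, the anion exchanger of the red cell membrane (Slc4a1), stood at 2.68, 3.97 and 8.02 in Satb1 KO HSC, LMPP and CLP. In WT it was at 1.65, 1.42 and 7.82. The CLP arrays were again far above the others, and the WT HSC and LMPP levels differed by 0.24, close to the scanner error of 0.204. Icam4, the Landsteiner-Wiener blood group adhesion protein, stood at -1.21, -1.41 and 1.14 in Satb1 KO and at -0.10, -3.28 and 1.43 in WT. Its lowest level was that of WT LMPP, while both CLP arrays were above the rest.

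Ermap, an erythroblast membrane protein that carries the Scianna blood group, has 3 probes, and they disagreed. Probe A_51_P391716 gave 1.41, 0.33 and 3.45 in Satb1 KO HSC, LMPP and CLP, and 0.42, -2.12 and 3.14 in WT. Probe A_55_P2153382 gave 0.43, -1.40 and 1.96 in Satb1 KO, and -0.75, -2.57 and 1.85 in WT. These 2 probes were lowest in LMPP and highest in CLP in both genotypes, with a Pearson correlation of 0.98 over the 6 arrays. The third, A_55_P2153381, gave 1.88, 1.92 and 1.66 in Satb1 KO and 2.92, 2.09 and 2.22 in WT. It was not highest in CLP, its correlations with the other 2 were -0.28 and -0.27, and as the brightest of the 3 it stands for Ermap wherever genes are counted by their brightest probe.

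The carbonic anhydrases Car1 and Car2 did not share 1 pattern. The brighter Car1 probe stood at 0.05, -2.00 and 0.44 in Satb1 KO HSC, LMPP and CLP, and at -1.97, -1.05 and 0.23 in WT. The lowest array was LMPP in Satb1 KO but HSC in WT. The dim Car1 probe gave -2.96, -5.30 and -2.75 in Satb1 KO and -4.43, -4.55 and -3.03 in WT, where Satb1 KO LMPP, WT HSC and WT LMPP were not well above background. The other 12 probes of the set were well above background on all 6 arrays. Car2 stood at 3.88, 3.40 and 4.99 in Satb1 KO and at 3.59, 3.82 and 4.44 in WT. It was the member with the narrowest range apart from the third Ermap probe, and CLP was highest in both genotypes.

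The receptors were measured by 1 probe for Epor and 3 for Tfrc. Epor stood at 0.60, -0.94 and 1.79 in Satb1 KO HSC, LMPP and CLP, and at 0.00, -1.75 and 2.09 in WT. LMPP was its lowest and CLP its highest population in both genotypes. Tfrc, the transferrin receptor, has a probe printed 10 times on the array (A_52_P228236), which gave 1.66, 1.78 and 4.01 in Satb1 KO and 1.07, 1.36 and 3.75 in WT. Its repeated spots had an SD between 0.052 and 0.0778 on an array, with 7 to 10 spots kept. The other Tfrc probes gave 0.29, 0.26 and 2.74 (A_65_P06446) and -1.37, -2.16 and 0.52 (A_51_P167876) in Satb1 KO, and 0.01, -0.58 and 2.65, and -1.50, -2.30 and 0.74 in WT. All 3 Tfrc probes were highest in CLP in both genotypes, and their pairwise correlations over the 6 arrays lay between 0.93 and 0.98.

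**Figure D1:**
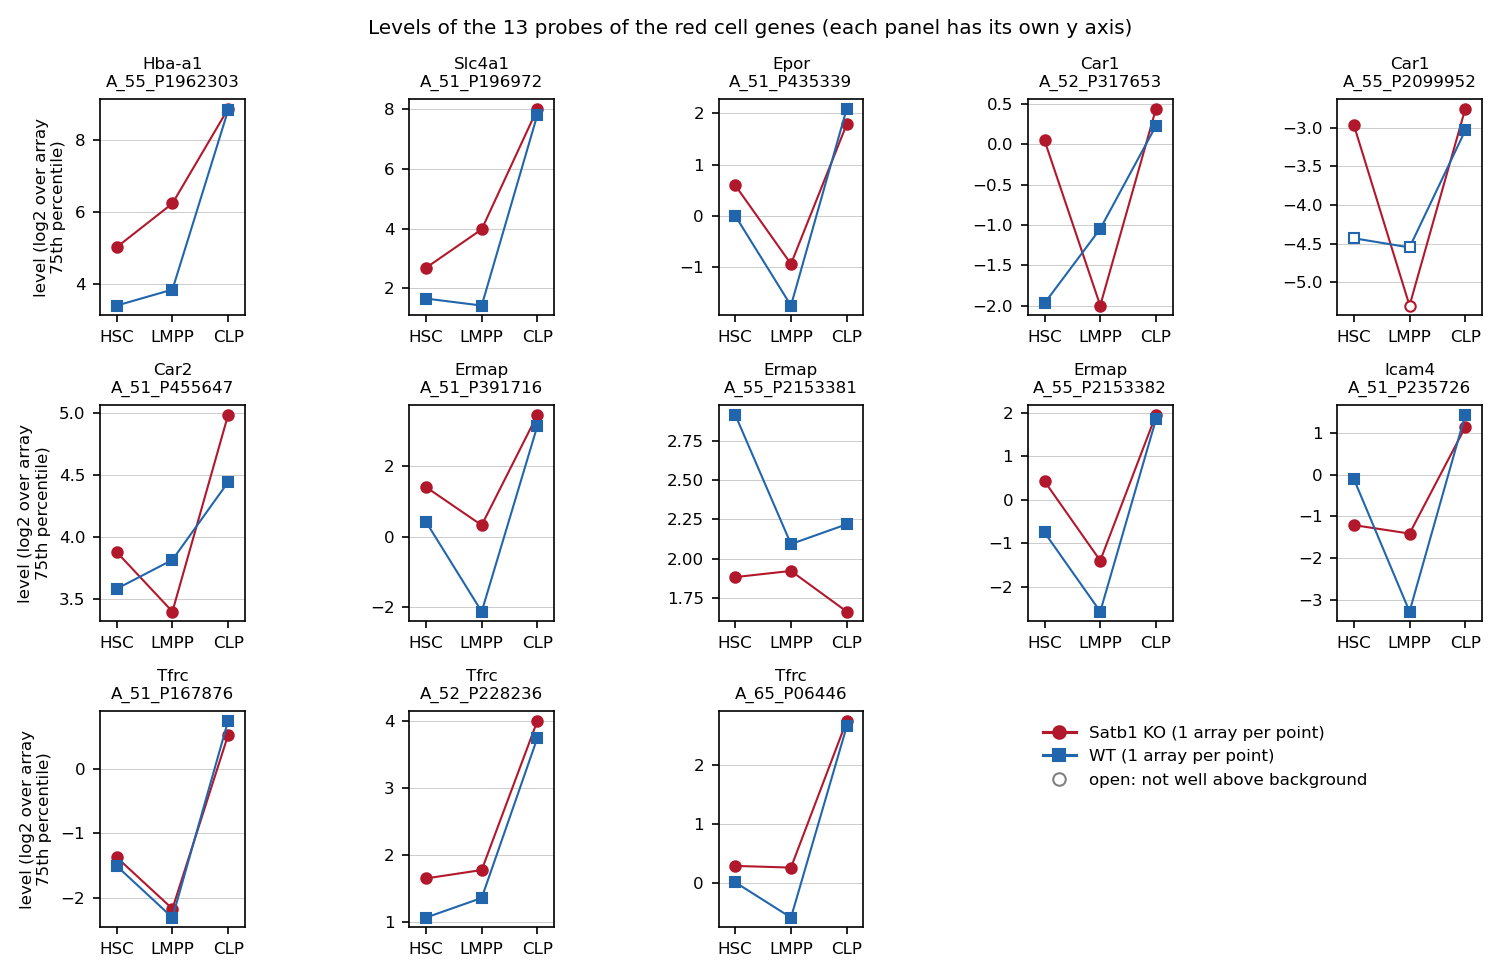
Level of each of the 13 probes (y axis, log2 over the array's 75th percentile, own scale per panel) in HSC, LMPP and CLP (x axis), with Satb1 KO as circles and WT as squares, 1 array per point, and open symbols where the spot was not well above background. For 11 of the 13 probes both CLP arrays lie above the other 4.

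The populations were compared over both genotypes. In CLP, transferrin receptor, band 3, erythropoietin receptor and Ermap by 2 probes were higher than in LMPP in the limma fit over all 6 arrays, with genotype as the other term. Of the 13 probes 7 rose and none fell at an adjusted p below 0.05, where 1.61% of the 30568 probes tested rose and 1.34% fell. Slc4a1 rose by 5.22 ± 0.617 (log2, SE), a 37.4-fold difference (adjusted p = 0.0409). Ermap rose by 4.19 ± 0.571 and 3.89 ± 0.379 by its 2 correlated probes (adjusted p = 0.0476 and 0.0353) and stood at -0.07 by the third (adjusted p = 0.924). Epor rose by 3.28 ± 0.369, or 9.74-fold (adjusted p = 0.0391). Tfrc rose by 2.86, 2.31 and 2.86 by its 3 probes (adjusted p between 0.0349 and 0.0388). Hba-a1 (3.82, adjusted p = 0.0602), Icam4 (3.63, adjusted p = 0.0917), Car1 (1.85, adjusted p = 0.241) and Car2 (1.1, adjusted p = 0.161) did not pass. Under 9 other settings that kept all arrays, Hba-a1 passed in 5 (adjusted p between 0.0127 and 0.0796) and Icam4 in 2 (adjusted p between 0.0147 and 0.115). Among these settings the authors' values, once centred, are the same as the main values.

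Within each genotype the same contrast had these sizes. In Satb1 KO the CLP level was above the LMPP level by 4.05 for Slc4a1, 2.73 for Epor, 2.64 for Hba-a1, 2.55 for Icam4, 2.43 for Car1 and 1.58 for Car2. In WT the differences were 6.4 for Slc4a1, 5.0 for Hba-a1, 4.71 for Icam4, 3.84 for Epor, 1.27 for Car1 and 0.63 for Car2. As linear ratios that is 16.5-fold in Satb1 KO and 84.6-fold in WT for Slc4a1, and 6.24-fold and 32.1-fold for Hba-a1. By the brightest probe 7 of 8 genes were at least 2-fold higher in Satb1 KO (all but Ermap) and 6 of 8 in WT (all but Ermap and Car2), and none was lower. Over all genes 14.7% were 2-fold higher and 14.6% lower in Satb1 KO, and 14.5% were higher and 17.9% lower in WT. The median of the 8 genes was 2.49 in Satb1 KO and 3.12 in WT, beside 0.01 and -0.07 over all genes.

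Against HSC, CLP had more alpha globin, band 3 and transferrin receptor. In the same fit 5 of the 13 probes rose and none fell, where 1.21% of all probes tested rose and 1.06% fell. Slc4a1 rose by 5.75 (53.9-fold, adjusted p = 0.0407) and Hba-a1 by 4.66 ± 0.620 (25.2-fold, adjusted p = 0.0495). Tfrc rose by 2.07, 2.52 and 2.54 by its 3 probes (adjusted p = 0.045, 0.0388 and 0.0433). Epor (1.64, adjusted p = 0.098), the 2 correlated Ermap probes (2.38 and 2.07, adjusted p = 0.107 and 0.0728), Icam4 (1.94, adjusted p = 0.229), Car1 (1.29, adjusted p = 0.371) and Car2 (0.98, adjusted p = 0.186) did not pass. By the brightest probe 6 of 8 genes were 2-fold higher and none lower in each genotype, beside 15.0% higher and 14.1% lower of all genes in Satb1 KO and 17.8% and 15.8% in WT. Over both contrasts, 7 of the 8 genes (11 of 13 probes) had both CLP arrays above the other 4 arrays and none had both below, against 16.0% above and 20.3% below of all probes tested.

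These calls rest on few arrays. For each population its Satb1 KO and WT arrays stand in for replicates, so that a contrast that differs between genotypes adds to the error. The fit has 2 residual degrees of freedom, and with any 1 of the 6 arrays left out no probe of the array passed in either contrast, while 9 to 11 of the 13 kept an unadjusted p below 0.05 against LMPP and 8 to 10 against HSC. The effects of the 7 and 5 probes kept their direction in every such fit, from 4.25 to 6.20 for Slc4a1 against LMPP and from 3.67 to 5.64 for Hba-a1 against HSC, with adjusted p between 0.0768 and 0.272 and between 0.0821 and 0.252. Where values below background were not raised to a floor, 3 probes passed against LMPP and none against HSC.

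Between LMPP and HSC no probe of the set and no probe of the array passed in the limma fit, while 4 of the 13 and 7.78% of all had an unadjusted p below 0.05. Those 4 were Epor (-1.64, adjusted p = 0.594), the correlated Ermap probes (-1.81 and -1.83, adjusted p = 0.64 and 0.59) and the dimmest Tfrc probe (-0.80, adjusted p = 0.64). In Satb1 KO 2 of 8 genes were 2-fold higher in LMPP, Slc4a1 (1.29) and Hba-a1 (1.22), and 2 were lower, Car1 (-2.04) and Epor (-1.54). All genes gave 7.31% higher and 7.67% lower there. In WT none of the 8 was 2-fold higher and 2 were lower, Icam4 (-3.18) and Epor (-1.75), beside 7.45% higher and 6.7% lower of all genes. Epor was thus lower in LMPP in both genotypes, while Slc4a1 stood at 1.29 in Satb1 KO and at -0.24 in WT (0.04 in WT with centring on the median), a difference of differences with no test.

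The study asked which genes depend on Satb1 in each population. On the LMPP arrays alpha globin, band 3, Ermap by 2 probes and Icam4 were more than 2-fold higher in Satb1 KO. On the HSC arrays alpha globin, band 3, Car1 and Ermap by 1 probe were more than 2-fold higher. Icam4 and Ermap by its brightest probe were more than 2-fold lower there, and on the CLP arrays no member passed 2-fold. Over all genes, 5.82% were 2-fold higher and 3.76% lower in LMPP, 8.42% and 5.85% in HSC, and 11.9% and 8.33% in CLP. In the fit across populations no member passed for genotype. There 4 of the 30568 probes of the array passed (0.0131%), and 6.21% of all and 1 of the 13, Hba-a1, had an unadjusted p below 0.05.

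In LMPP the Satb1 KO level was above WT by 2.4 for Hba-a1 (5.28-fold), 2.56 for Slc4a1 (5.88-fold) and 1.87 for Icam4 (3.65-fold). Ermap was higher by 2.44 and 1.17 and lower by 0.17 by its 3 probes, the last within the scanner error. With normexp background correction Icam4 was at 0.59 and the correlated Ermap probes at 1.59 and 0.45, so that Icam4 and 1 Ermap probe were not past 2-fold. Epor was higher by 0.81 and Tfrc by 0.42 in the 10-spot probe, with 0.84 and 0.14 in the others. Car1 (-0.95) and Car2 (-0.42) were lower in Satb1 KO. That made 3 of 8 genes 2-fold higher and none lower, beside 5.82% higher and 3.76% lower of all genes. The median of the 8 was 0.61, against -0.04 over all genes.

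In HSC, Car1 was higher in Satb1 KO by 2.01 (4.04-fold) with its brighter probe and by at least 1.07 with the dim one, Hba-a1 by 1.63 (3.09-fold) and Slc4a1 by 1.03 (2.04-fold). Slc4a1 was below 2-fold with centring over detected probes alone (0.89) and with quantile normalization (0.93), and with normexp background correction Car1 was at 1.23 and 0.12 by its 2 probes. Icam4 was lower by 1.11 there, whereas it was higher by 1.87 in LMPP. Ermap was at 0.98 and 1.18 by the correlated probes (1.18 became 0.88 with normexp) and at -1.03 by the third. Epor (0.59), Tfrc (0.58 in the 10-spot probe, 0.28 and 0.13 in the others) and Car2 (0.30) lay below 2-fold. The count was 3 of 8 genes higher and 2 lower, where 8.42% of all genes were higher and 5.85% lower. All genes had a median of 0.13 in this comparison, and of 0.32 with centring on the array median, a shift that the member values include. The 2 lower genes, Icam4 and Ermap, were not past 2-fold with that centring.

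In CLP the described genes differed little between genotypes, while 11.9% of all genes were 2-fold higher in Satb1 KO and 8.33% lower, the largest shares of the 3 populations. Hba-a1 differed by 0.04 (-0.02 with centring on the median) and Slc4a1 by 0.20, both within the scanner error. The largest differences were -0.56 for the third Ermap probe and 0.54 for Car2, followed by Ermap at 0.31, Epor at -0.30 and Icam4 at -0.30. None of the 8 genes was 2-fold higher or lower. The smallest genotype differences of Hba-a1 and Slc4a1 were in the population where their levels were highest.

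Over the 3 populations the fitted Satb1 KO minus WT difference was 1.36 ± 0.506 for Hba-a1, 1.26 ± 0.504 for Slc4a1 and 1.24 ± 0.466 and 0.82 ± 0.310 for the correlated Ermap probes (log2, SE, each with adjusted p = 0.781). The third Ermap probe was at -0.59, the 10-spot Tfrc probe at 0.42, Epor at 0.37, Car1 at 0.42, Icam4 at 0.15 and Car2 at 0.14, with adjusted p between 0.781 and 0.971.

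**Figure D2:**
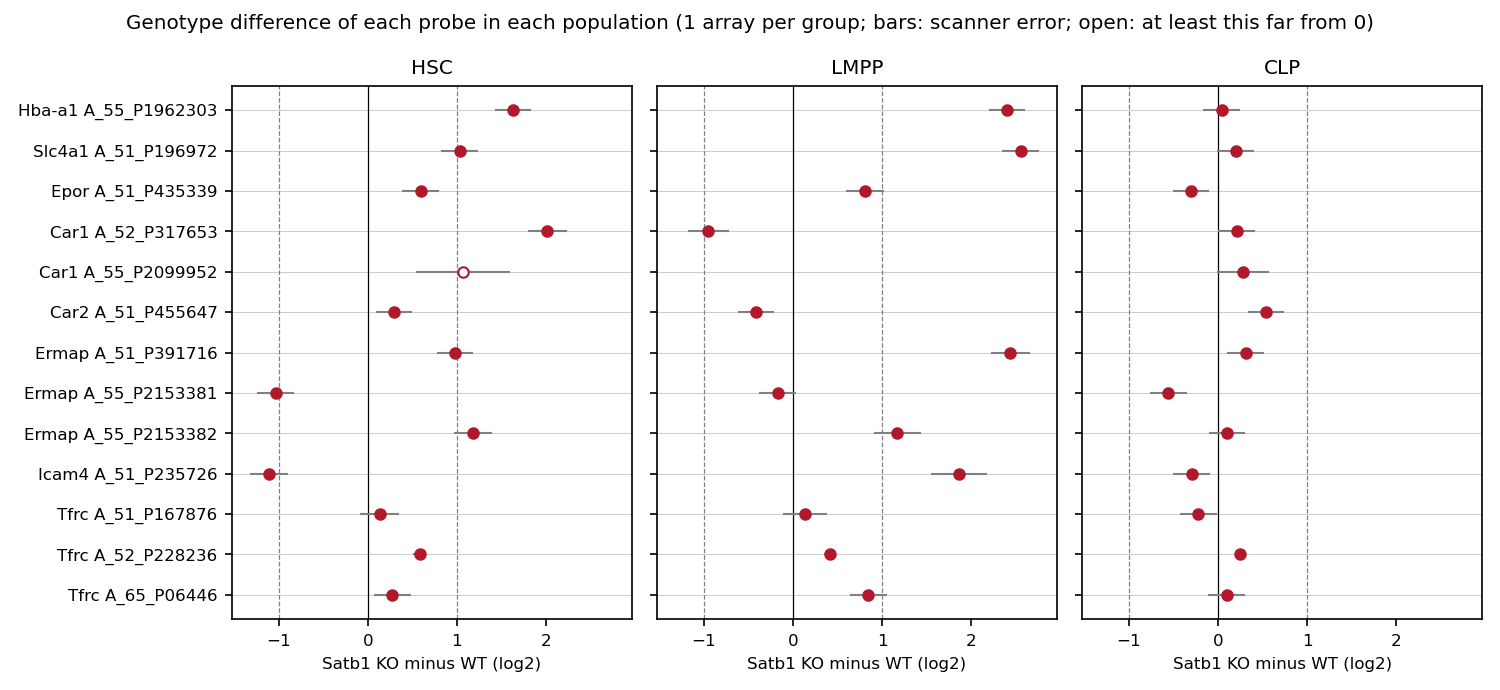
Satb1 KO minus WT difference of each probe (x axis, log2) in HSC, LMPP and CLP, with bars for the error of the scanner software, an open symbol for a bound and dashed lines at 2-fold. Hba-a1, Slc4a1 and 2 Ermap probes lie at 1.17 to 2.56 in LMPP, and all probes lie between -0.56 and 0.54 in CLP.

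Other genes of red cell biology were read from gene lists, again by brightest probe. In the fit 1.61% of all probes tested rose in CLP over LMPP and 1.34% fell. Of the 10 further globin genes matched, 4 were in the fit and 2 of these rose in CLP over LMPP, the beta globins Hbb-bs (3.81, adjusted p = 0.0469) and Hbb-b2 (2.07, adjusted p = 0.0457). Hba-a2 stood at 3.95, 5.15 and 7.70 in Satb1 KO HSC, LMPP and CLP and at 2.56, 2.64 and 7.67 in WT, a fitted difference of 3.79 that did not pass (adjusted p = 0.0642). Hbb-bt, the brightest beta globin, was high in all 3 populations, at 5.18, 5.45 and 6.22 in Satb1 KO and 5.16, 5.09 and 6.69 in WT. Its fitted difference of 1.18 did not pass (adjusted p = 0.127). All 4 had both CLP arrays above the other 4. On no array were the embryonic globins Hba-x and Hbb-bh1 well above background, and the embryonic Hbb-y was so on the WT CLP array alone (-2.80).

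Of the membrane and skeleton genes, 11 of the 29 in the fit rose in CLP over LMPP and none fell, beside 1.61% and 1.34% of all probes tested. The 11 include Ank1, the ankyrin that ties band 3 to spectrin (4.72, adjusted p = 0.0349), the adducin Add2 (at least 5.85 in Satb1 KO and at least 6.42 in WT, adjusted p = 0.0344) and the Rh blood group gene Rhd (4.56, adjusted p = 0.0349). The bright genes Cd44, a hyaluronan receptor (0.44, adjusted p = 0.417), and Cd47, which shields cells from macrophages (0.49, adjusted p = 0.304), did not pass. Against HSC 7 of the 29 rose and none fell, beside 1.21% and 1.06% of all probes tested.

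Of all probes tested 1.61% rose in CLP over LMPP and 1.21% rose over HSC. Iron and haem supply gave 9 of 24 genes that rose in CLP over LMPP and 8 that rose over HSC, with none lower in either. Among them were Slc25a37, which brings iron into mitochondria (3.0, adjusted p = 0.0344), the haem pathway enzymes Fech (3.38, adjusted p = 0.0344) and Cpox (3.01, adjusted p = 0.0349), and the iron exporter Slc40a1 (4.97 in Satb1 KO and at least 5.10 in WT, adjusted p = 0.0344). Alas2, the erythroid first enzyme of haem synthesis, was at 5.16 but did not pass (adjusted p = 0.0634), the ferritin chain Fth1 was at 0.23, and Glrx5 was at 0.74. Of 17 erythroid factors 4 rose over LMPP, Sox6 (at least 5.26 in Satb1 KO and 4.26 in WT, adjusted p = 0.0344), Klf1 (4.26 in Satb1 KO and at least 4.35 in WT, adjusted p = 0.0344), Gata1 (4.12, adjusted p = 0.0349) and E2f2 (2.67, adjusted p = 0.0466), while the bright genes Bcl11a, a repressor of globin genes, and Myb were at -0.61 and 0.08. Of the 14 red cell enzymes in the fit 3 rose over LMPP, Trim10, Alox15 and Add2, the last also in the membrane list, while the antioxidant enzymes Gpx1 and Sod1 were at 0.10 and -0.72. None of 13 genes of erythropoietin signalling passed in either contrast (4 with an unadjusted p below 0.05 over LMPP and 6 over HSC), with Csf2rb at 1.73 (adjusted p = 0.058) and Socs2, a feedback inhibitor, at -1.43 (adjusted p = 0.101). None of 9 further carbonic anhydrases in the fit passed (1 unadjusted in each contrast), and 5 of the 14 matched were on no array well above background.

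With values below background at the floor, the list medians for CLP over LMPP in the fit were 2.93 for globins, 1.44 for membrane genes, 1.86 for iron and haem supply, 0.23 for erythroid factors, 0.71 for enzymes, 0.25 for erythropoietin signalling and 0.21 for carbonic anhydrases, beside -0.12 over all probes tested. Both CLP arrays were above the other 4 for 22 of 29 membrane genes, 18 of 24 iron and haem genes, 10 of 14 enzymes, 7 of 17 factors, 4 of 13 signalling genes and 1 of 9 carbonic anhydrases, against 16.0% of all probes. Both CLP arrays were below the other 4 for 4 of 17 factors and 3 of 13 signalling genes. The same held for 1 of 29 membrane genes, 1 of 14 enzymes and 1 of 9 carbonic anhydrases. No globin and no iron and haem gene in the fit was below on both, against 20.3% of all probes. With any 1 array left out no list gene passed.

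**Figure D3:**
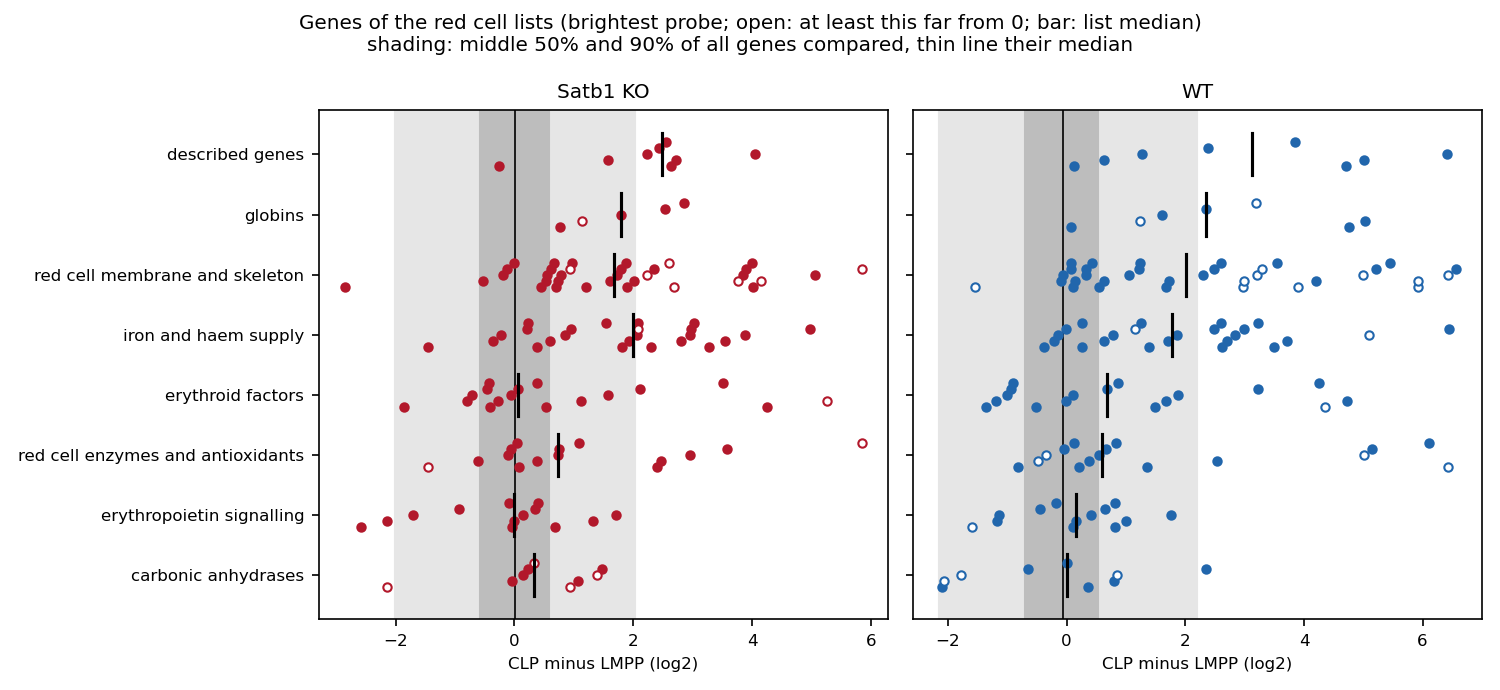
CLP minus LMPP difference (x axis, log2) of each gene of the red cell lists in Satb1 KO (left) and WT (right), 1 point per gene, open where it is a bound, with the list median as a bar and the middle 50% and 90% of all genes compared as shading. Globin, membrane and iron and haem genes extend to the right of the shading, and the median of the described genes is 2.49 in Satb1 KO and 3.12 in WT.

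Between genotypes, in LMPP, where 5.82% of all genes were 2-fold higher in Satb1 KO and 3.76% lower, 8 of 28 membrane genes were 2-fold higher in Satb1 KO and none lower, Kel by at least 2.69, Rhag by at least 2.25 and Rhd by 1.89 among them. Of 5 globin genes 2 were higher, Hba-a2 by 2.52 and Hbb-bs by 2.06, and of 23 iron and haem genes 2 were higher, Alas2 by 3.03 among them. Of 17 factors Gata1 (1.01) and Klf1 (at least 1.03) were higher, just past 2-fold. Of 15 red cell enzymes 3 were higher, Blvrb (2.48), Pklr (2.43) and Trim10 (at least 1.60). In HSC, with 8.42% of all genes higher and 5.85% lower, 4 of 27 membrane genes were higher, Xk by 1.25 and Rhd by 1.07 among them, and 1, Tpm1, was lower (-1.08). Of 24 iron and haem genes 4 were higher there, among them Slc25a39 by 1.31 and Steap3 by 1.29, and of 4 globin genes 1, Hba-a2 (1.38), while no factor and no enzyme passed 2-fold. In CLP, with 11.9% of all genes higher and 8.33% lower, 2 of 34 membrane genes were lower, Slc2a4 (-2.0) and Ackr1 (-1.03), and none higher. There 2 of 7 globin genes were lower, Hbq1b (-1.77) and Hbb-y (-1.38, a bound), and 2 of 17 factors, Klf3 (-1.50) and Foxo3 (-1.17), with none higher in either list. Of 24 iron and haem genes 2 were higher in CLP and 1 lower, and no enzyme passed 2-fold. Of 8 further carbonic anhydrases 3 were higher and 1 lower in CLP, 3 and 1 in HSC, and none and 1 in LMPP. Of 13 signalling genes 1 was higher and 2 lower in CLP, 2 and none in HSC, and 1 and 1 in LMPP. In the limma fit no gene of these lists passed for genotype, and the number with an unadjusted p below 0.05 was 0 for globins and enzymes, 1 of 17 factors, 3 of 24 iron and haem genes, 3 of 29 membrane genes, 2 of 13 signalling genes and 1 of 9 carbonic anhydrases.

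Some lists of markers of other cells also had their highest sums in CLP, and others did not. The summed linear level of the 8 described genes, in units of the array's 75th percentile, reached 63.3, 109.9 and 787.0 in Satb1 KO HSC, LMPP and CLP, and 37.5, 38.7 and 731.0 in WT. Mast cell, basophil and eosinophil markers summed to 29.3, 13.1 and 158.9 in Satb1 KO and to 21.1, 5.21 and 205.3 in WT. Prg2 was the brightest of them in CLP, at 6.72 in Satb1 KO and 7.27 in WT. In CLP over LMPP 6 of the 7 in the fit rose, beside 1.61% of all probes tested, among them the eosinophil genes Epx (5.55) and Prg2 (4.38). In CLP over HSC 3 of the 7 rose and 1, Tpsb2, fell (-4.70, adjusted p = 0.0375), beside 1.21% and 1.06% of all probes tested. Cma1 was well above background on the HSC arrays only. In LMPP, 5 of 7 were 2-fold higher in Satb1 KO, beside 5.82% of all genes. Fcer1a alone of the 11 was on no array well above background.

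Megakaryocyte markers summed to 68.2, 68.1 and 95.2 in Satb1 KO and to 53.8, 45.6 and 136.0 in WT. In LMPP 8 of 12 were 2-fold higher in Satb1 KO and none lower (5.82% and 3.76% of all genes). In the fit 1 of 11, Gp1ba, rose in CLP over LMPP (2.97, adjusted p = 0.0349), beside 1.61% of all probes tested. Macrophage markers summed to 25.1, 23.0 and 36.8 in Satb1 KO and to 26.5, 24.9 and 32.0 in WT, with 2 of 9, Adgre1 and Vcam1, risen in CLP over LMPP. C1qa and Cd163 were nowhere well above background. Hepatocyte markers stayed between 3.92 and 4.47 in Satb1 KO and between 2.97 and 3.41 in WT, with Ttr, Fgb and Apob not well above background anywhere. Stem cell markers ran the other way, at 143.7, 116.3 and 14.3 in Satb1 KO and 109.6, 112.9 and 7.61 in WT. Early lymphoid markers summed to 8.99, 18.2 and 22.3 in Satb1 KO and to 5.01, 17.6 and 16.8 in WT. The part of any of these cells in the levels of the red cell genes was not tested.

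**Figure D4:**
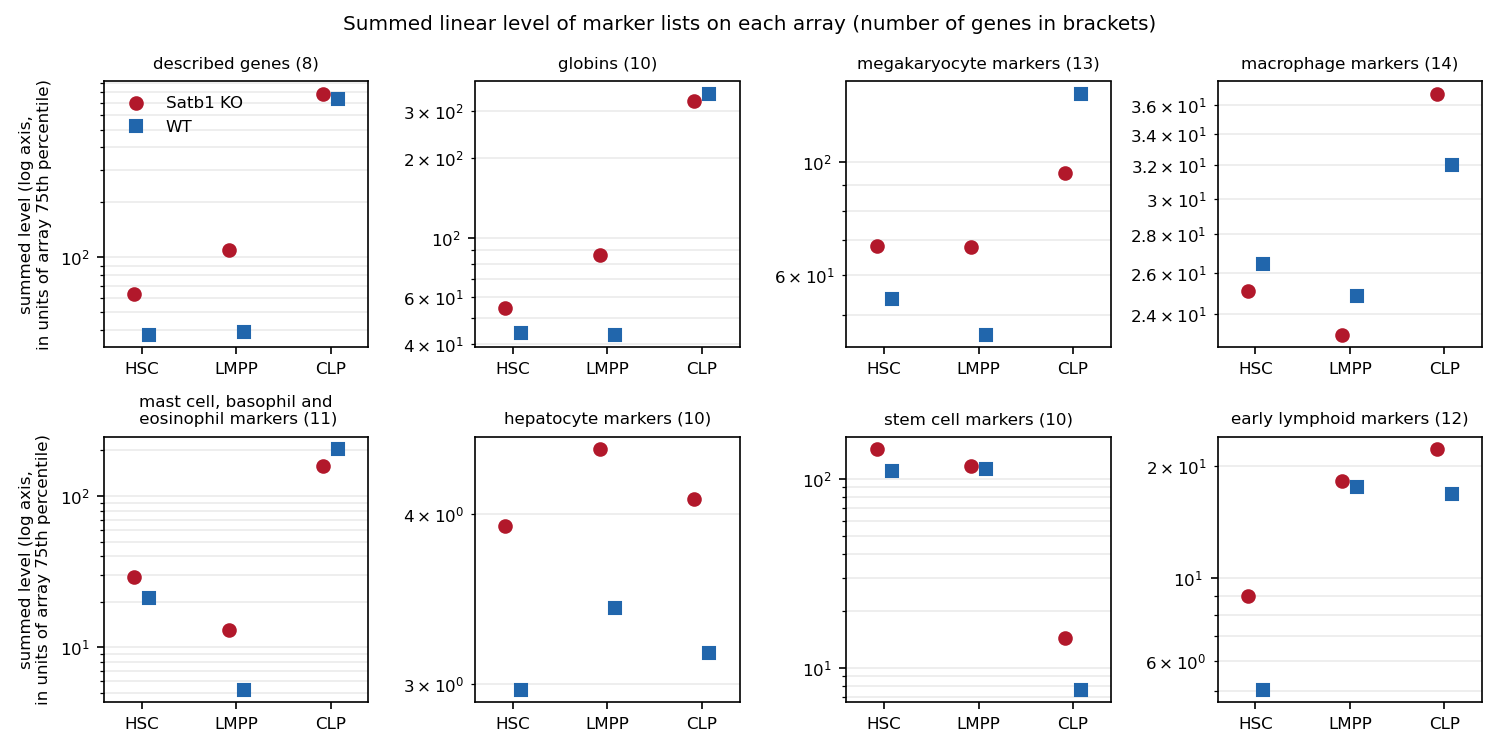
Summed linear level of each marker list (y axis, log scale, in units of the array's 75th percentile) in HSC, LMPP and CLP, with Satb1 KO as circles and WT as squares, 1 array per point. The sums of the described genes, of globins and of mast cell, basophil and eosinophil markers are highest in CLP, and that of stem cell markers is lowest there.

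The genes most like Hba-a1, Slc4a1 and Car1 were named by Pearson correlation over the 6 arrays among 6484 genes that were well above background on all arrays and ranged over at least 1 log2 unit. Points share an array and its centring, and with 6 of them high values are common, so these are descriptions. Hba-a1 was followed most closely by Hba-a2 (r = 0.999), Mocs1 (0.997), Abhd5 (0.995), Hbb-bs (0.994) and Phlda1 (0.993). Slc4a1 was followed by Epx (0.996), Lilrb4a (0.995), Eif2ak3 (0.995), Hbb-bs (0.994) and Mocs1 (0.994). Alpha globin and band 3 thus share Hbb-bs and Mocs1, which makes a cofactor of molybdenum enzymes, among their nearest genes. Car1 had other neighbours, Hopx (0.991), Atxn7l3 (0.976), Tmem185b (0.973), Vma21 (0.972) and Hace1 (0.969). Among the members themselves Hba-a1 and Slc4a1 correlated at 0.990, Tfrc and Slc4a1 at 0.984, Icam4 and Epor at 0.932, and Car1 and Icam4 at 0.487.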

How the data were processed

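RNA of each sorted population (6.1 ng of total RNA, per the labels' protocols) was amplified to cDNA, labelled with Cy3 and hybridised to 1 single-colour Agilent array. The deposited scanner files give spot intensity on a linear scale, made with Agilent Feature Extraction 10.10.1.1 per the file headers (10.10 per the submitters' processing notes). The authors' deposited table holds signal values that equal the processed signal times 1 constant per array (5.708 to 8.773), with column medians of 165.3, 145.6 and 124.9 in Satb1 KO HSC, LMPP and CLP and 200.1, 140.2 and 120.7 in WT, so its scale is linear, no gene was centred, and why those constants were chosen is not known. Depth is limited by the number of arrays.

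Each array's log2 processed signal was centred on the 75th percentile of its non-control spots. Outlier spots were left out, spots of a probe were averaged, and a probe counted as well above background where more than 50% of its spots did. Names came from symbols or RefSeq accessions, for 27248 of 55681 probes. A difference from an array not well above background is a bound, against the higher of that array's lowest signal well above background and the probe's own value. Calls between 2 arrays are at 2-fold. limma 3.58.1 (R 4.3.3; lmFit, eBayes) fitted genotype and population to the 30568 probes well above background on at least 3 arrays, with lower values raised to that floor and Benjamini-Hochberg adjustment over all of them. The fit treats arrays of different populations as replicates for genotype, and arrays of the 2 genotypes as replicates for population. Its p-values thus measure only the spread between these arrays, whose embryos may be shared. The fit was tested on simulated data.

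Genes named are all 8 described genes, label checks, list genes that passed in the fit or had the largest differences, the brightest that did neither, and the 5 most correlated genes of Hba-a1, Slc4a1 and Car1. Some list genes that this rule names are not reported here. Genes on no array well above background were named after their values were seen. Members and lists were chosen with earlier results of these data known. Alternatives were other centrings, normexp background correction on the median spot and background signals (offset 50; a mean spot signal was not used here), quantile normalization, the authors' values, the mean over probes, thresholds of 1.5-fold and 3-fold, other filters, no floor, other eBayes settings, and leaving out each array. Promoter windows came from RefSeq (GRCm38.p6).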

Additional observations from a re-analysis of the deposited data

Results flagged for a closer look

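Each of 3 genes differed between Satb1 KO and WT in opposite directions in a pair of populations, by more than 2 times the error of the scanner software on each side. Car1 was higher in Satb1 KO by 2.01 in HSC and stood at -0.95 in LMPP (log2). Icam4 stood at -1.11 in HSC and at 1.87 in LMPP. Car2 stood at -0.42 in LMPP and at 0.54 in CLP. Epor, at 0.59 in HSC, 0.81 in LMPP and -0.30 in CLP, was past the error in CLP but not past 2 times the error. Each value is a difference between 2 single arrays, and the difference between populations was not tested.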

How the results depend on the processing

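No paired analysis was possible because each group has 1 array and the labels give no replicate numbers; population is already a term of the fit. The authors' values equal the processed signal times 1 constant per array, so that after centring no result could move. The count of probes of the set that rose in CLP over LMPP went from 7 to 3 without a floor, and that over HSC from 5 to 2 with centring over detected probes alone, 9 with normexp, 1 with quantile normalization and 0 without a floor. Over the whole array the 901 probes called between CLP and LMPP became 2506 with normexp, 451 with quantile normalization, 1516 without a filter, 434 without a floor and 2718 with trend and robust eBayes. The 696 between CLP and HSC became 1412 with median centring, 2482 with normexp, 304 with quantile normalization, 1544 without a filter, 290 without a floor and 2187 with trend and robust eBayes. The 4 for genotype became 0 with quantile normalization and with probes well above background on all 6 arrays only. Leaving out any 1 array gave 0 calls in every contrast, by fits with 1 residual degree of freedom. Of the counts past 2-fold, the 2 members lower in Satb1 KO HSC than in WT became 0 with median centring, normexp or a 3-fold threshold and 1 with the mean over probes, and the 0 lower in LMPP became 1 at 1.5-fold. The 3 higher in HSC became 2 with centring over detected probes alone, quantile normalization or 3-fold, and the 3 higher in LMPP became 2 with normexp. For LMPP over HSC in Satb1 KO the 2 higher became 0 and the 2 lower became 1 at 3-fold, and in WT the 0 higher became 1 with median centring, quantile normalization or 1.5-fold. The 0 lower for CLP over HSC in WT became 1 at 1.5-fold. Apart from the filter and floor, which change the values or number of probes tested, the cause was not tested. No called difference of a member probe changed sign under these alternatives, apart from the mean over probes, where signs were not checked. For Satb1 KO minus WT in HSC the 3 Ermap probes differed in sign (0.98, 1.18 and -1.03).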
